A study of Mus musculus with 24 samples.

Results

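The genes of classical non-homologous end joining were followed on oligonucleotide arrays of mouse embryonic fibroblasts that lack Ku70, the product of Xrcc6. The 9 members were chosen by symbol, as the named factors of the pathway and by no threshold on measured values, and are Xrcc6, Xrcc5, Prkdc, Lig4, Xrcc4, Nhej1, Dclre1c, Trp53bp1 and Polm, out of 18442 protein-coding genes with a probe. They are read by 17 of the 41174 probes of the array. Each of the 24 arrays was hybridized with RNA from immortalized Ku70-/- cells, so that the deletion is shared by every group, controls included, and no wild-type array is part of the comparison. The 3 arrays of a group are biological replicates of 1 cell line by the study's methods, so p-values measure the spread within that line. RNA came from whole cultures, in which fewer cells with a transcript and less transcript per cell cannot be told apart. In the first set of 15 arrays, 5 groups of 3 held untreated controls labeled 4 hr, cells given 20 mM KBrO3 for 1 hr and left to repair for 3 or 23 hr (KBrO3 alone at 4 and 24 hr), and cells given 150 μM BPA before, during and after that KBrO3 treatment (co-exposure at 4 and 24 hr). In the second set of 9 arrays, 3 groups of 3 held that set's own untreated controls, for which no time is labeled, and cells given only 150 μM BPA at 4 and 24 hr by the labels, times that the study's methods give as 1 hr longer. There is no control labeled 24 hr, and each treatment was compared with the controls of its own set. KBrO3 is potassium bromate, an oxidant that damages DNA bases, and BPA is bisphenol A, a monomer of polycarbonate plastic.

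End joining reseals DNA double-strand breaks without a template. Ku70 and Ku80 form a ring that slides onto the broken end and recruits the kinase DNA-PKcs, and the nuclease Artemis trims ends that cannot be ligated directly. DNA ligase IV, held by its scaffold XRCC4 and helped by XLF, closes the break, DNA polymerase mu fills short gaps, and 53BP1 on the flanking chromatin shields ends from resection. Ku80 protein is known to be unstable without its partner, a property of the protein that a transcript array does not read. Fibroblasts outside S phase rely on this pathway for most double-strand breaks.

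The probes are 60-base oligonucleotides, and those shown here have bases that hold a reading frame open from end to end, in the orientation of the transcript. For Lig4, Xrcc4 and Nhej1 the second probe of the gene is shown, whose values stand beside those of the representative probe below. They are printed in lower case with no part marked, and the coordinates are those that the array annotation of the first set gives in build mm7. The Xrcc6 probe lies on the plus strand at chr15:82115620-82120093, a stretch longer than the probe, as for a sequence that joins exons, and the sources used here do not say whether the deletion removed these exons.
Xrcc6: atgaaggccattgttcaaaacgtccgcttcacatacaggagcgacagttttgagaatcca
The Xrcc5 probe likewise spans a longer stretch, on the plus strand at chr1:72625282-72625588.
Xrcc5: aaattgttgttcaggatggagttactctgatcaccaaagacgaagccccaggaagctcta
So does the Prkdc probe, on the plus strand at chr16:15382581-15385186 and is spotted 10 times on each array.
Prkdc: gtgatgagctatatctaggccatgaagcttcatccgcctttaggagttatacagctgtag
The second Lig4 probe lies on the minus strand at chr8:9941648-9941707.
Lig4: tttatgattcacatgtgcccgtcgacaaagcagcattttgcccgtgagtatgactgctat
The second Xrcc4 probe is on the minus strand at chr13:87075494-87075553, and the second Nhej1 probe on the minus strand at chr1:75207377-75207436.
Xrcc4: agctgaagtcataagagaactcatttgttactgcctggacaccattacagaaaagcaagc
Nhej1: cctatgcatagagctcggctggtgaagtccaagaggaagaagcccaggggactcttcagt
The representative Dclre1c probe is on the plus strand at chr2:3370687-3370746, and is shown because another probe of the gene differs from it below.
Dclre1c: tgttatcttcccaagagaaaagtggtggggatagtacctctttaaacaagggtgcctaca
The representative Trp53bp1 probe is on the minus strand at chr2:120939905-120939964.
Trp53bp1: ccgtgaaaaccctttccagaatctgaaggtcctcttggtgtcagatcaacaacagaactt
Where a gene has several probes, the brightest on average over all 24 arrays stands for it below. All 9 representative probes were well above background on all 24 arrays and none was saturated, while 13 of the 17 member probes met that standard and 1 Xrcc4 probe stayed below that standard on each array. A level below is a log2 signal minus the 75th percentile of its array. Levels of different probes are not compared with each other.

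Between 57.7% and 68.1% of spots were well above background on arrays of the first set, and 76.4% to 79.4% on those of the other. The median residual SD of a probe was 0.107 on the log2 scale for the first set against 0.340 for the other, so that a difference had to be larger in the second set to pass the test. Of 10 fibroblast markers 9 were well above background on all 24 arrays, and Thy1 was so on 10 of 15 and 9 of 9 arrays. Ptprc and Pecam1, which define blood and endothelial cells, did not reach that standard on an array, but the endothelial markers Kdr and Tek reached it on all 24, and Epcam was so on 1 array of the first set and 2 of the second. Of the other epithelial markers, Krt18 was so on 11 of 15 and 9 of 9 arrays, Krt8 on 5 and 9 and Cdh1 on 0 and 9. Cd68 and Cd3e, markers of macrophages and T cells, were well above background on all 24 arrays, and the mean level of Cd68 went from -3.08 in the first set's controls to -0.83 in KBrO3 alone and -1.42 in co-exposure at 4 hr, and -1.92 and -1.21 at 24 hr. The mean level of Kdr was -5.25 in those controls, -3.72 and -3.84 at 4 hr and -3.66 and -4.65 at 24 hr. The summed endothelial markers ranged over -3.23 to -2.79 log2 units in the controls, -2.52 to -2.42 in KBrO3 alone at 4 hr, -2.85 to -2.51 in KBrO3 alone at 24 hr and -3.52 to -3.28 in co-exposure at 24 hr, and those of skeletal muscle over -1.04 to -0.70, -1.05 to -0.72, -2.07 to -1.75 and -3.41 to -2.46 in the same order. The summed fibroblast markers lay between 10.59 and 10.68 log2 units in the first set's controls, between 9.37 and 9.55 in KBrO3 alone at 24 hr and between 8.81 and 9.05 in co-exposure at 24 hr. At 4 hr they lay between 10.47 and 10.56 in KBrO3 alone and between 10.05 and 10.1 in co-exposure. The endothelial sums of co-exposure at 4 hr ranged over -2.59 to -2.21 and those of skeletal muscle over -0.59 to -0.29. The part of these shifts in the member changes at 4 and 24 hr was not tested. The first set lies on 5 slides, 1 of which holds KBrO3 alone at 4 hr beside 1 control array, and on another KBrO3 alone and co-exposure at 24 hr share a slide. In the first set's other comparisons with control, and in co-exposure against KBrO3 alone at 4 hr, slide and treatment cannot be told apart. For KBrO3 alone from 4 to 24 hr, slide and time cannot be told apart, since these groups share no slide.

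At 4 hr after KBrO3 the members mostly fell, and at 24 hr most stood above control. The 4 comparisons with control in this set share its 3 control arrays. In KBrO3 alone at 4 hr, 5 of the 9 members were lower than control and 1 was higher at a Benjamini-Hochberg adjusted p below 0.05, beside 38.1% of all protein-coding genes tested that were lower and 34.5% that were higher. The members' median log2 difference was -0.46, and that of all genes was 0.020. Co-exposure at 4 hr lowered 6 members and raised 2, against a background of 40.7% lower and 39.7% higher, with a median of -0.42 beside 0.0065 for all genes. In KBrO3 alone at 24 hr, 6 members were higher and 1 lower, while 31.3% of all genes were higher and 38.1% lower, and the medians were 0.22 and -0.068. Co-exposure at 24 hr raised 5 members and lowered 1 beside 34.5% and 38.0% of all genes, with medians of 0.18 and -0.059. Most genes of the array passed the test in each of these comparisons, so the sizes of the differences are given below gene by gene. Under the threshold that the study's methods use, a Bonferroni-adjusted p below 0.01 with a fold change beyond 1.5, the members called were 3 in KBrO3 alone at 4 hr (Xrcc6, Nhej1 and Polm), 4 in co-exposure at 4 hr (the same 3 and Lig4), 1 in KBrO3 alone at 24 hr (Lig4) and 2 in co-exposure at 24 hr (Xrcc5 and Prkdc), where 31.2%, 35.9%, 20.0% and 23.8% of all genes passed.

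**Figure D1:**
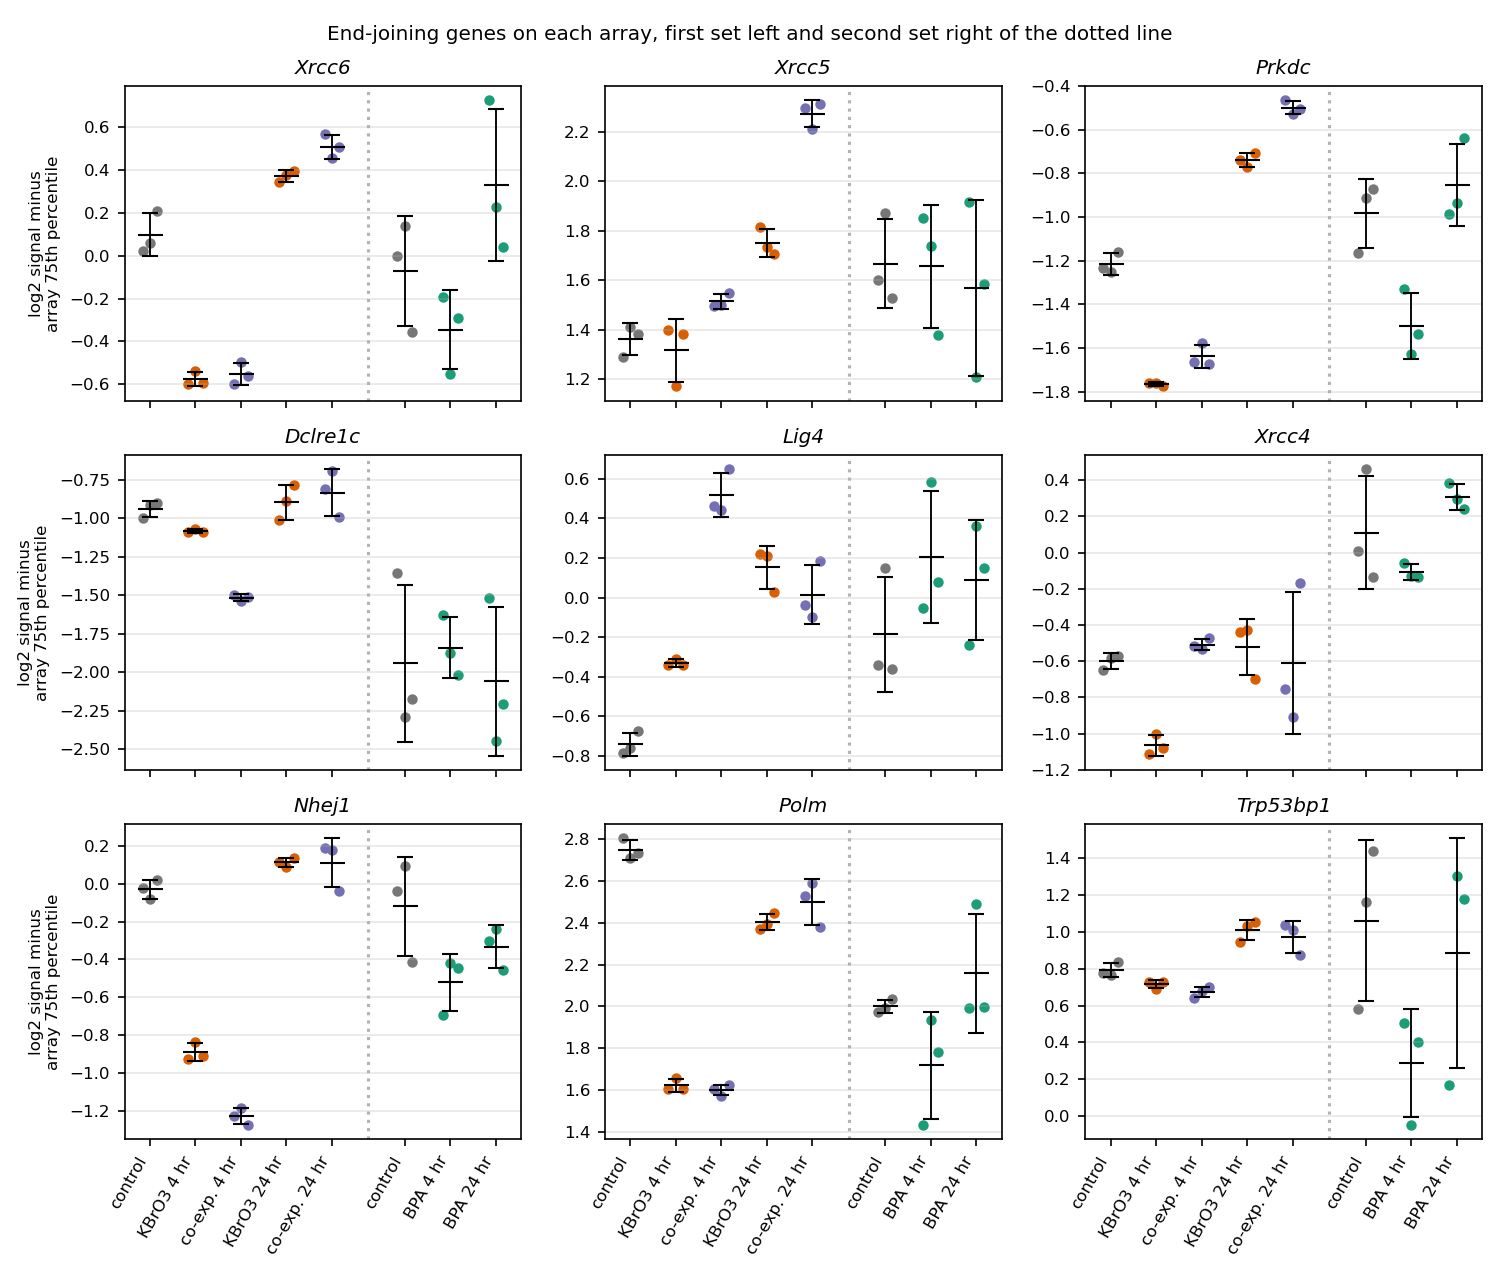
Level of each member's representative probe on each array, as log2 signal minus the array's 75th percentile, with 1 point per array and bars for the mean and SD of 3. Points left of the dotted line are the first set and points right of it the second. The Polm points of KBrO3 alone and co-exposure at 4 hr sit near 1.6, below controls near 2.7.

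Xrcc6 encodes Ku70 itself, and its probe gave a signal well above background on every array although the cells carry a deletion of the gene. Levels were 0.023, 0.058 and 0.21 in the controls, -0.60, -0.54 and -0.59 in KBrO3 alone at 4 hr and -0.60, -0.50 and -0.56 in co-exposure at 4 hr. All 6 treated arrays at 4 hr lay below all 3 controls, a fall by 0.67 ± 0.053 on the log2 scale (SE, 1.59-fold, adjusted p = 1.47e-07) with KBrO3 alone and by 0.65 ± 0.053 with co-exposure (adjusted p = 1.83e-07). Against the 1 control array on the same slide, KBrO3 alone at 4 hr differed by -0.79. At 24 hr the levels were 0.34, 0.38 and 0.40 with KBrO3 alone and 0.57, 0.46 and 0.51 with co-exposure. These 6 arrays lay above all controls, by 0.28 ± 0.053 (adjusted p = 0.000564) and 0.41 ± 0.053 (adjusted p = 1.82e-05). The first of these calls was lost with all 24 arrays in 1 fit (adjusted p = 0.159). Under median scaling the differences were larger, at 0.42 (adjusted p = 0.000703) with KBrO3 alone and 0.73 (adjusted p = 5.19e-06) with co-exposure. Since all groups carry the same deletion, the probe is no check of the labels.

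Xrcc5 encodes Ku80, the other subunit of the ring. Its levels were 1.29, 1.41 and 1.38 in the controls and 1.40, 1.17 and 1.38 in KBrO3 alone at 4 hr, groups that overlap, with a difference of -0.045 (95% interval -0.18 to 0.091, adjusted p = 0.533). At 24 hr the levels were 1.82, 1.73 and 1.71 with KBrO3 alone and 2.30, 2.21 and 2.31 with co-exposure. The 3 co-exposed arrays were the highest of the first set, at 1.88 times control (0.91 ± 0.062 on the log2 scale, adjusted p = 5.96e-08), and KBrO3 alone at 24 hr was 1.31-fold above control (adjusted p = 0.000134). Co-exposure at 4 hr exceeded control by 0.15 ± 0.062 (adjusted p = 0.0391), a call that was lost without control replicate 1 or 3 or any 1 of the co-exposed arrays. It was also lost with quantile normalization (0.10, adjusted p = 0.153), under median scaling (0.011, adjusted p = 0.9), with no filter on dim probes (adjusted p = 0.0667), with all 24 arrays in 1 fit (adjusted p = 0.397) and with slide as a random block (0.12, adjusted p = 0.367). With normexp background correction the call was kept, at a larger difference of 0.32 (adjusted p = 0.0275).

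Prkdc encodes DNA-PKcs, the kinase that Ku brings to the break. Levels were -1.23, -1.25 and -1.16 in the controls, -1.76, -1.76 and -1.78 in KBrO3 alone at 4 hr, -1.66, -1.58 and -1.67 in co-exposure at 4 hr, -0.74, -0.77 and -0.71 in KBrO3 alone at 24 hr and -0.47, -0.53 and -0.50 in co-exposure at 24 hr. No treated group overlapped the controls. The gene fell by 0.55 ± 0.040 (adjusted p = 7.06e-08) and 0.42 ± 0.040 (adjusted p = 7.8e-07) at 4 hr and rose by 0.48 ± 0.040 (adjusted p = 4.82e-07) and 0.72 ± 0.040 (adjusted p = 9e-09) at 24 hr, the latter 1.64-fold. With normexp background correction the difference in KBrO3 alone at 24 hr was 0.11 (adjusted p = 0.49) and that in co-exposure was 0.34 (adjusted p = 0.0435).

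Dclre1c encodes Artemis, the end-trimming nuclease that DNA-PKcs activates. Its representative probe read -1.002, -0.92 and -0.90 in the controls and -1.50, -1.54 and -1.51 in co-exposure at 4 hr, a fall by 0.58 ± 0.073 with no overlap (adjusted p = 1.18e-05). In KBrO3 alone at 4 hr the 3 arrays, at -1.09, -1.07 and -1.09, also lay below the controls, but the difference of -0.14 (95% interval -0.30 to 0.015) did not pass the test (adjusted p = 0.0954). With slide as a random or a fixed block it did, at -0.17 (adjusted p = 0.0271) and -0.18 (adjusted p = 0.025), as it did with only the arrays compared (adjusted p = 0.0175) and without co-exposure replicate 3 at 24 hr (adjusted p = 0.036). At 24 hr the differences from control were 0.043 and 0.11, neither past the test, although the second was 0.42 under median scaling (adjusted p = 0.0049) and 0.19 without co-exposure replicate 3 (adjusted p = 0.0197). A dim second probe was not well above background on the 3 arrays of KBrO3 alone at 4 hr and was at least 1.88-fold lower there than in the controls (adjusted p = 4.85e-07). In co-exposure at 4 hr its mean level was -4.73, against -4.10 in the controls. Another probe, too dim to enter the fit, was at least 1.29-fold higher in co-exposure at 4 hr than in the controls. That probe was well above background on 2 of those 3 co-exposed arrays and on no control.

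**Figure D2:**
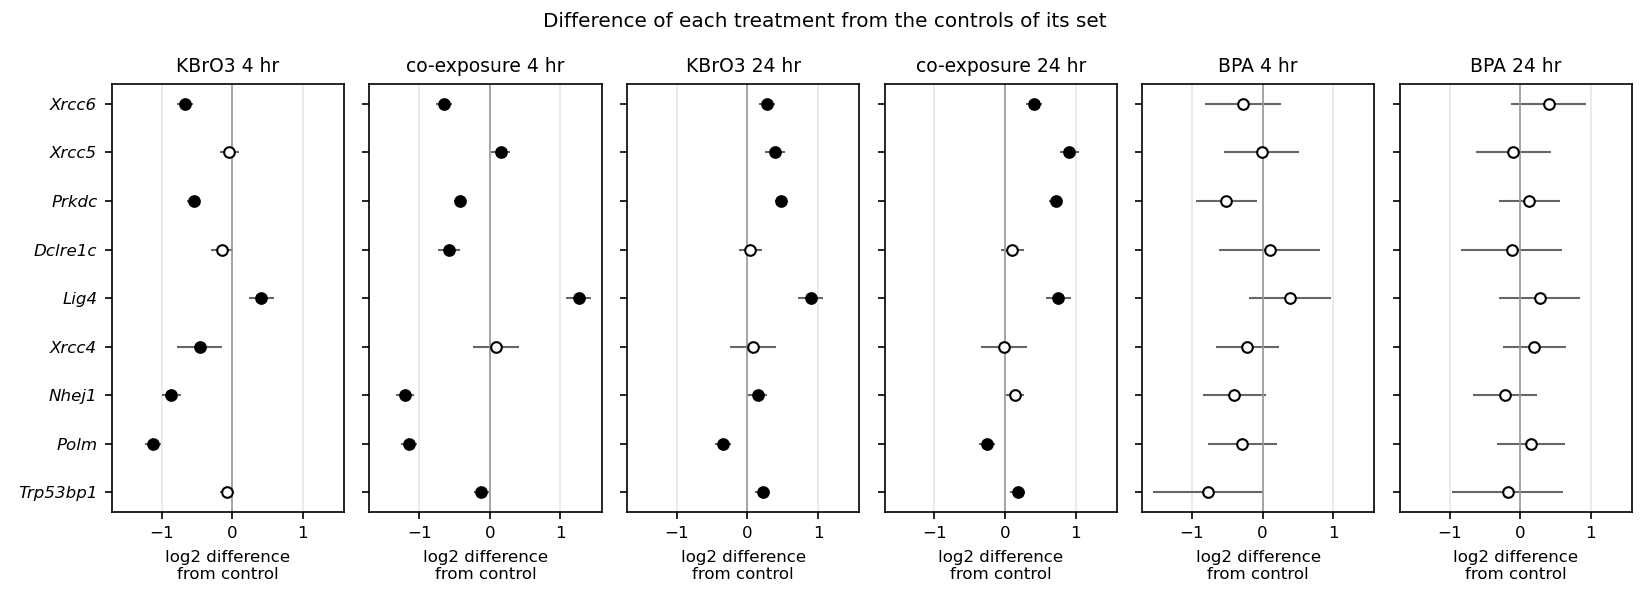
Log2 difference of each treated group from the controls of its set for the 9 members, with 95% intervals, filled points marking an adjusted p below 0.05. Lig4 lies right of 0 in the 4 KBrO3 and co-exposure panels, and the intervals of the BPA panels are wider than those of the first set.

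Lig4, the ligase that closes the break, was higher than control in all 4 treated groups of the first set. Its representative probe read -0.78, -0.76 and -0.68 in the controls, -0.34, -0.31 and -0.34 in KBrO3 alone at 4 hr, 0.46, 0.44 and 0.65 in co-exposure at 4 hr, 0.22, 0.21 and 0.029 in KBrO3 alone at 24 hr and -0.039, -0.10 and 0.18 in co-exposure at 24 hr. The 12 treated arrays lay above the 3 controls. The rise was 0.41 ± 0.081 in KBrO3 alone at 4 hr (adjusted p = 0.000572), and that call was lost with normexp background correction (0.22, adjusted p = 0.121) and with all 24 arrays in 1 fit (adjusted p = 0.0553). Co-exposure at 4 hr gave the largest rise, 1.26 ± 0.081 or 2.39-fold (adjusted p = 1.91e-08), followed by 0.89 ± 0.081 in KBrO3 alone at 24 hr (adjusted p = 9.85e-07) and 0.76 ± 0.081 in co-exposure at 24 hr (adjusted p = 3.73e-06). The second Lig4 probe, printed above, read 0.15, 0.89, 0.68 and 0.53 in the same order of groups, and the first of these did not pass the test (adjusted p = 0.0744).

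Xrcc4, the scaffold that stabilizes ligase IV, read -0.65, -0.58 and -0.57 in the controls and -1.11, -1.0 and -1.08 in KBrO3 alone at 4 hr, with no overlap. It fell by 0.46 ± 0.15 there (adjusted p = 0.0133), and its second probe fell by 0.36 ± 0.066 (adjusted p = 0.000314). In co-exposure at 4 hr the representative probe differed from control by 0.090 (95% interval -0.23 to 0.41) and the second by -0.15, neither past the test. At 24 hr with KBrO3 alone the representative probe was at 0.077 (adjusted p = 0.666) and the second at -0.16 (adjusted p = 0.0488). The co-exposed arrays at 24 hr read -0.75, -0.91 and -0.17. The third of them stood far above the others, and without it the difference from control was -0.23 (adjusted p = 0.0221) in place of -0.011 (adjusted p = 0.953). The second probe was at -0.18 (adjusted p = 0.028), with all 3 co-exposed arrays below the controls. Replicate 3 was alone on its slide in the first set.

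Nhej1, which encodes the ligation factor XLF, fell in both treatments at 4 hr. Its levels were -0.023, -0.081 and 0.018 in the controls, -0.93, -0.83 and -0.91 in KBrO3 alone and -1.23, -1.19 and -1.27 in co-exposure, 3 groups with no overlap. The gene fell by 0.86 ± 0.059, or 1.82-fold, in KBrO3 alone (adjusted p = 4.3e-08) and 1.20 ± 0.059, or 2.30-fold, in co-exposure (adjusted p = 1.58e-09). The second probe gave -0.86 and -1.08 (adjusted p = 0.00188 and 0.000314). At 24 hr the level stood 0.14 above control with KBrO3 alone (adjusted p = 0.0497) and 0.14 with co-exposure (adjusted p = 0.0516), on either side of the threshold. With only probes above background on every array the second passed (adjusted p = 0.0442). Under median scaling it was 0.46 (adjusted p = 0.000533), and without replicate 3 of co-exposure it was 0.21 (adjusted p = 0.000913). The first of these calls was lost on leaving out any 1 of 11 of the 15 first-set arrays, namely control replicate 1 or 2, or any of KBrO3 alone at either time or co-exposure at 4 hr. It was also lost with normexp background correction (0.13, adjusted p = 0.16), with no filter on dim probes (adjusted p = 0.0872), with all 24 arrays in 1 fit (adjusted p = 0.367), with the replicate number as a block (adjusted p = 0.0685) and with slide as a random block (0.086, adjusted p = 0.374).

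Polm, which encodes the gap-filling polymerase mu, had the largest fall of the 9 members in KBrO3 alone at 4 hr. Levels were 2.80, 2.71 and 2.74 in the controls, 1.60, 1.66 and 1.61 in KBrO3 alone and 1.61, 1.57 and 1.62 in co-exposure at 4 hr. The treated arrays lay over 1 log2 unit below the controls, at 2.19-fold (adjusted p = 1.13e-09) and 2.22-fold (adjusted p = 7.87e-10) lower. At 24 hr with KBrO3 alone the gene fell by 0.35 ± 0.053 (adjusted p = 9.23e-05), a call lost under median scaling (-0.20, adjusted p = 0.087) and with normexp background correction (-0.054, adjusted p = 0.76). In co-exposure at 24 hr the difference was -0.25 ± 0.053 (adjusted p = 0.00107) and its sign turned under median scaling (0.068) and normexp background correction (0.0022), while with all 24 arrays in 1 fit (adjusted p = 0.126) the call was lost.

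Trp53bp1, which encodes 53BP1, differed from control by 1.16-fold or less in the treated groups of the first set in the main fit. The level was 0.79 ± 0.037 in the controls (SD, n = 3), 0.72 ± 0.022 in KBrO3 alone and 0.67 ± 0.029 in co-exposure at 4 hr, and 1.01 ± 0.056 and 0.97 ± 0.088 at 24 hr. Differences from control were -0.075 (adjusted p = 0.179), -0.12 (adjusted p = 0.0385), 0.22 (adjusted p = 0.00165) and 0.18 (adjusted p = 0.00529). In KBrO3 alone at 4 hr the gene was called lower with quantile normalization (-0.10, adjusted p = 0.0483) and with slide as a random block (-0.11, adjusted p = 0.0321) or a fixed block (-0.12, adjusted p = 0.0197). The call in co-exposure at 4 hr was lost without any 1 control, without co-exposure replicate 1 or 2 and without KBrO3 alone replicate 1 or 3 at 4 hr, at adjusted p up to 0.117. It was also lost with normexp background correction (-0.024, adjusted p = 0.837), with no filter on dim probes (adjusted p = 0.0723), with all 24 arrays in 1 fit (adjusted p = 0.687), with the replicate number as a block (adjusted p = 0.0653) and with slide as a random block (-0.11, adjusted p = 0.131). At 24 hr the call in KBrO3 alone was lost with all 24 arrays in 1 fit (adjusted p = 0.503) and that in co-exposure with only the arrays compared (adjusted p = 0.0628) and with all 24 arrays in 1 fit (adjusted p = 0.576). Both 24 hr differences were larger under median scaling, at 0.37 (adjusted p = 0.00389) and 0.50 (adjusted p = 0.000346). With normexp background correction they were 0.34 (adjusted p = 0.0113) and 0.31 (adjusted p = 0.0154). Median scaling put co-exposure at 4 hr at -0.26 (adjusted p = 0.0206). The second Trp53bp1 probe passed the test in none of these comparisons, with differences between 0.11 and 0.25.

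Between 4 and 24 hr all 9 members were higher at the later time in KBrO3 alone, beside 34.0% of all genes that were higher and 43.8% that were lower. The median rise was 0.54, against -0.13 for all genes. Prkdc rose 2.04-fold (adjusted p = 2.74e-10), Nhej1 2.01-fold (adjusted p = 1.16e-08) and Xrcc6 1.93-fold (adjusted p = 6.61e-09). The smallest rise was that of Dclre1c, 0.19 ± 0.073 (adjusted p = 0.0346), and its call was lost without any 1 array of KBrO3 alone at 4 hr or without replicate 2 or 3 at 24 hr (adjusted p up to 0.144). That call was also lost with normexp background correction (0.075, adjusted p = 0.728), with all 24 arrays in 1 fit (adjusted p = 0.493) and with slide as a random block (0.15, adjusted p = 0.184). The Trp53bp1 rise of 0.29 was not called with all 24 arrays in 1 fit (adjusted p = 0.31), nor was its rise of 0.30 in co-exposure (adjusted p = 0.278). In co-exposure 7 members were higher at 24 than at 4 hr and Lig4 fell by 0.50 ± 0.081 on the log2 scale (adjusted p = 0.000104), with a background of 37.1% higher and 47.4% lower. Nhej1 rose 2.53-fold (adjusted p = 6.94e-10) and Prkdc 2.20-fold (adjusted p = 9.14e-11), whereas Xrcc4 differed by -0.10 (95% interval -0.42 to 0.22) and by -0.32 without replicate 3 of co-exposure at 24 hr (adjusted p = 0.00309). Scaling to the array median in place of the 75th percentile adds 0.46 to every difference of this comparison, which left Lig4 at -0.043 (adjusted p = 0.677) and put Xrcc4 at 0.36 (adjusted p = 0.0366). No comparison here has an untreated group at 24 hr, so time in culture and time after treatment cannot be told apart. The 4 and 24 hr arrays share no slide in KBrO3 alone or in co-exposure. For KBrO3 alone slide and time cannot be told apart either.

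Co-exposure was set against KBrO3 alone to read what BPA added to the same KBrO3 treatment. At 4 hr 4 members were higher with BPA (Lig4, Xrcc4, Xrcc5 and Prkdc) and 2 lower on their representative probes (Nhej1 and Dclre1c), beside 28.1% and 32.7% of all genes. The other tested probe of Dclre1c was higher. Lig4 was 1.80-fold higher (0.85 ± 0.081, adjusted p = 4.92e-06), with all 3 co-exposed arrays above all 3 of KBrO3 alone on both probes, and it was the single member past the Bonferroni and fold threshold, as 6.00% of all genes were. Its partner Xrcc4 was 1.47-fold higher (0.56 ± 0.15, adjusted p = 0.00699), and the second Xrcc4 probe was also higher (0.22 ± 0.066, adjusted p = 0.0145). The call of the representative Xrcc4 probe was lost with normexp background correction (0.49, adjusted p = 0.0525). Nhej1 differed by -0.34 ± 0.059 (adjusted p = 0.000471) on the representative probe and -0.22 (adjusted p = 0.363) on the second, opposite in sign to its partners in ligation. Prkdc exceeded KBrO3 alone by 0.13 ± 0.040 (adjusted p = 0.0164) and turned to -0.015 under median scaling, which takes 0.14 off each difference here. Xrcc5 was 0.20 higher (adjusted p = 0.0168) and was not called under that scaling (0.056, adjusted p = 0.56). Both calls were also lost without 1 of 2 arrays each, at adjusted p of 0.0505 without KBrO3 alone replicate 3 and 0.0732 without co-exposure replicate 2 for Prkdc, and 0.0726 without KBrO3 alone replicate 2 and 0.0562 without co-exposure replicate 3 for Xrcc5. The Prkdc call was lost as well with quantile normalization (0.090, adjusted p = 0.0524), with normexp background correction (0.11, adjusted p = 0.79), with all 24 arrays in 1 fit (adjusted p = 0.42) and with slide as a random block (0.16, adjusted p = 0.0888), and the Xrcc5 call with normexp background correction (0.21, adjusted p = 0.303), with all 24 arrays in 1 fit (adjusted p = 0.375) and with slide as a random block (0.18, adjusted p = 0.257). Xrcc6 differed by 0.024 (95% interval -0.091 to 0.14), Polm by -0.022 (95% interval -0.14 to 0.093) and Trp53bp1 by -0.044 (95% interval -0.15 to 0.061).

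Of 4 Dclre1c probes, the representative and 1 other entered the fit of the first set. Both passed the test at 4 hr in opposite directions. The representative probe differed by -0.43 ± 0.073 (adjusted p = 0.000346), while the dim probe was at least 1.21-fold higher in co-exposure than in KBrO3 alone (adjusted p = 0.00416), where it was not well above background. The probes carry accessions of different transcripts, and no direction is given for the gene as a whole. The call of the representative probe was lost with normexp background correction (-0.36, adjusted p = 0.191) and with all 24 arrays in 1 fit (adjusted p = 0.157).

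At 24 hr, 2 members were higher in co-exposure than in KBrO3 alone and none lower, beside 28.5% of all genes that were higher and 21.9% that were lower. Xrcc5 was 1.44-fold higher (0.52 ± 0.062, adjusted p = 2.82e-05) and Prkdc 1.18-fold (0.24 ± 0.040, adjusted p = 0.000391). The Prkdc call was lost with normexp background correction (adjusted p = 0.42) and with all 24 arrays in 1 fit (adjusted p = 0.146). On the slide that holds 2 arrays of each group the same differences were 0.53 and 0.24. Xrcc6 lay at 0.14, with the 3 co-exposed arrays above all of KBrO3 alone (adjusted p = 0.0508). That value passed without control replicate 1 or 3 or co-exposure replicate 2, under median scaling (0.31, adjusted p = 0.0107) and with slide as a random block (0.13, adjusted p = 0.0285). It also passed with only probes above background on every array (adjusted p = 0.0419) and with error weights (adjusted p = 0.0494). Polm, at 0.10, likewise passed under median scaling (0.27) and with slide as a random or a fixed block (0.12 and 0.14), and Xrcc4 with the fixed block (-0.27, adjusted p = 0.0301). Lig4, higher at 4 hr, was at -0.14 (95% interval -0.31 to 0.038). No member passed the Bonferroni and fold threshold, which 7.44% of all genes did. The call count of 2 became 5 without replicate 3 of co-exposure, the array that lies alone on its slide, with Lig4 at -0.22, Xrcc4 at -0.31 and Polm at 0.16.

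**Figure D3:**
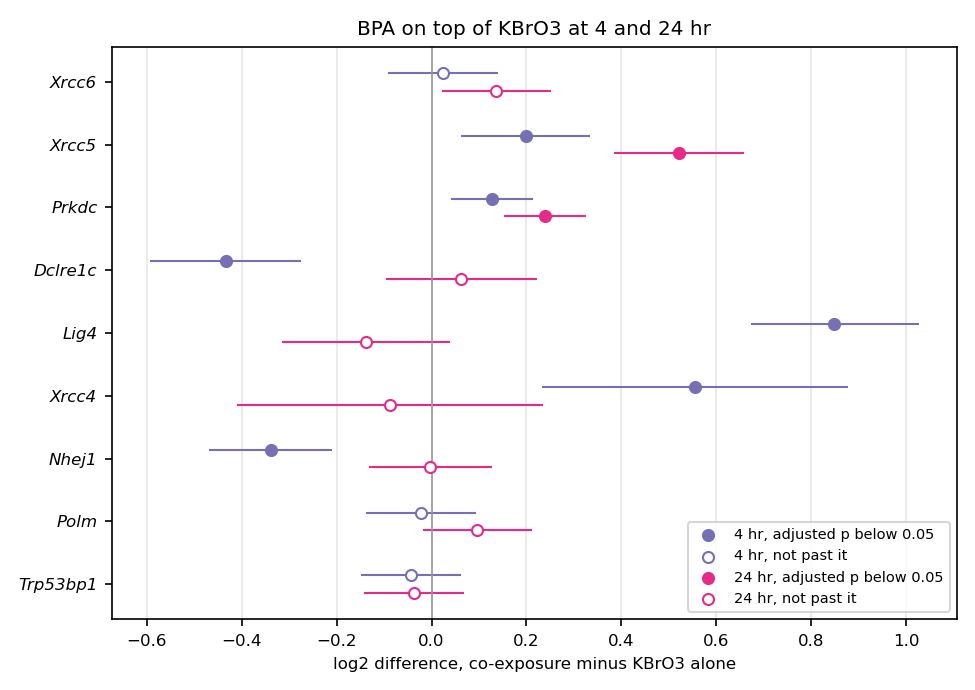
Log2 difference between co-exposure and KBrO3 alone at 4 and 24 hr for each member, with 95% intervals, filled points marking an adjusted p below 0.05. Lig4 stands 0.85 above 0 at 4 hr and at -0.14 at 24 hr, while Xrcc5 goes from 0.20 to 0.52.

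Whether the difference that BPA made changed between 4 and 24 hr was tested as an interaction, which 57.4% of all genes passed. It passed for 5 members. The difference shrank for Lig4, by -0.99 ± 0.11 on the log2 scale (adjusted p = 3.25e-05) and by -0.90 on its second probe (adjusted p = 1.93e-05), and for Xrcc4, by -0.64 ± 0.21 (adjusted p = 0.0213), a call lost without replicate 1 of co-exposure at 24 hr (-0.57, adjusted p = 0.0527). It grew for Xrcc5 by 0.32 ± 0.088 (adjusted p = 0.00885), and the negative differences of Nhej1 and of the representative Dclre1c probe moved up by 0.34 ± 0.084 (adjusted p = 0.00535) and 0.50 ± 0.10 (adjusted p = 0.00173). Slide as a fixed block could not be fitted here, since co-exposure and KBrO3 alone at 4 hr share no slide. Lig4 kept its call under all the other alternatives. With normexp background correction the other 4 lost theirs, at adjusted p of 0.291 for Xrcc5, 0.217 for Nhej1, 0.234 for Dclre1c and 0.119 for Xrcc4, and with all 24 arrays in 1 fit at 0.316, 0.171, 0.28 and 0.051 in that order. Xrcc5 also lost its call with slide as a random block (adjusted p = 0.0691), and Xrcc4 was at -0.33 under median scaling (adjusted p = 0.191). That scaling put Xrcc6, Prkdc and Polm past the test, at 0.42, 0.42 and 0.43 in place of 0.11, 0.11 and 0.12, and Polm also passed without replicate 3 of co-exposure at 24 hr (0.18).

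BPA alone called no member at either time. At 4 hr 0 of 9 members were higher or lower at an adjusted p below 0.05, beside 3.01% and 1.67% of all genes, and at 24 hr 0 of 9, beside 1.83% and 2.48%. The Bonferroni and fold threshold passed no member, as against 0.114% and 0.0318% of all genes. The largest difference at 4 hr on a representative probe was that of Trp53bp1, which read 0.58, 1.16 and 1.44 in the controls and 0.51, -0.047 and 0.40 with BPA. The 3 treated arrays lay below the controls, at -0.77 (95% interval -1.56 to 0.0074, adjusted p = 0.271), and within the slide that holds 1 control and 2 treated arrays the difference was -0.13. Prkdc read -1.16, -0.91 and -0.87 in the controls and -1.33, -1.63 and -1.53 with BPA at 4 hr, again with no overlap, at -0.51 (95% interval -0.94 to -0.085, adjusted p = 0.182), and at -0.27 within that slide. Lig4 was at 0.39 (95% interval -0.19 to 0.97) on the representative probe and 0.62 (95% interval -0.057 to 1.30) on the other. The second Trp53bp1 probe had mean levels of -2.45 in the controls and -3.91 with BPA at 4 hr, from arrays that overlap. The brightest other Dclre1c probe had -4.63 and -3.91, with all 3 treated arrays above the controls. At 24 hr the representative probes of the members lay between -0.21 for Nhej1 and 0.40 for Xrcc6 (95% interval -0.14 to 0.94). Other probes of Lig4 and Dclre1c went the other way from the representative ones. Mean levels on the second Lig4 probe were -0.91 in the controls and -1.18 with BPA, where the representative was at 0.27. The brightest other Dclre1c probe had -4.63 and -3.99, where the representative was at -0.12. From 4 to 24 hr in BPA alone 0 of 9 members passed, beside 1.24% higher and 3.05% lower, with Prkdc at 0.64 (95% interval 0.21 to 1.07) and Xrcc6 at 0.68 (95% interval 0.14 to 1.21).

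At an unadjusted p below 0.05, 1 member, Prkdc, lay below its controls in BPA alone at 4 hr and 0 of 9 passed at 24 hr, where 10.7% of all genes were lower at 4 hr and 20.8% passed in either direction at 24 hr. With all 24 arrays in 1 fit, which gives both sets 1 common spread, Prkdc (adjusted p = 0.00134), Nhej1 (adjusted p = 0.0184) and Trp53bp1 (adjusted p = 0.0213) were called lower in BPA alone at 4 hr, beside 13.5% of all genes. From 4 to 24 hr in BPA alone that fit called Xrcc6 (adjusted p = 0.00279), Prkdc (adjusted p = 0.000195) and Polm (adjusted p = 0.0179) higher at the later time, beside 14.9% of all genes, and 2 members, Xrcc6 and Prkdc, were higher at an unadjusted p below 0.05, as 11.6% of all genes were.

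Whether BPA differed by itself and on top of KBrO3 was tested over both sets. At 4 hr 10.2% of all genes differed and 1 member did. Prkdc was 0.13 higher when BPA was added to KBrO3 and -0.51 with BPA alone, a difference of 0.64 ± 0.14 (adjusted p = 0.00839), which was not past the test under median scaling (0.51, adjusted p = 0.16), with normexp background correction (0.45, adjusted p = 0.832) or without replicate 3 of BPA alone at 4 hr (0.62, adjusted p = 0.053). The largest value was that of Xrcc4, 0.77 ± 0.39 (adjusted p = 0.233), which passed with only the arrays compared (adjusted p = 0.0321), with error weights (adjusted p = 0.0222), without co-exposure replicate 3 at 24 hr (adjusted p = 0.0426) and with all 24 arrays under 1 common spread (adjusted p = 0.0208), and Lig4 gave 0.46 ± 0.26 (adjusted p = 0.298). Trp53bp1, at 0.73 (adjusted p = 0.104), passed without replicate 1 of the second set's controls (0.97) or of BPA alone at 24 hr (adjusted p = 0.0341). At 24 hr 3.50% of all genes and none of the members passed, and the largest member value was 0.62 ± 0.22 for Xrcc5 (adjusted p = 0.174). Scanning and its software differ between the sets and cannot be told apart from this contrast.

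**Figure D4:**
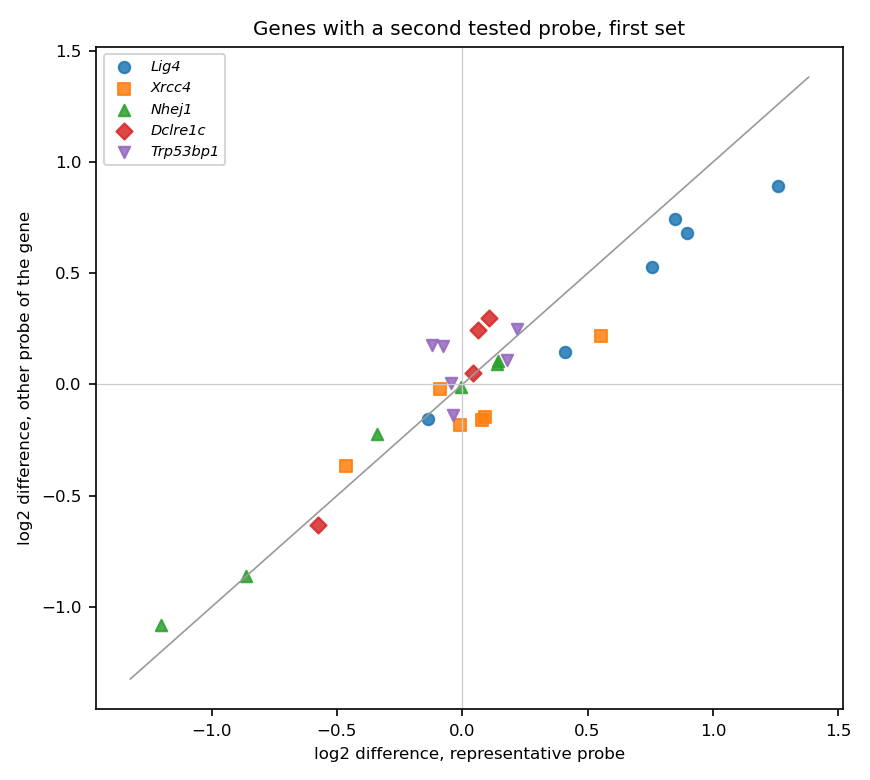
Log2 difference on a gene's other tested probe (vertical) against its representative probe (horizontal) for the 6 comparisons of the first set, with the line of equality. The Lig4 and Nhej1 points lie on the same side of 0 on both probes, and Dclre1c is left out of both comparisons with KBrO3 alone at 4 hr, where its other probe has only a bound.

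Other genes of the pathway were read as lists, which are described by counts and medians. Single genes are named for the size of their change, given as a log2 difference without its p-value. The shares of all genes called in the same comparisons were 38.1% lower and 34.5% higher in KBrO3 alone at 4 hr, 40.7% and 39.7% in co-exposure at 4 hr, 38.1% and 31.3% in KBrO3 alone at 24 hr and 38.0% and 34.5% in co-exposure at 24 hr, with all-gene medians of 0.020, 0.0065, -0.068 and -0.059. Of 9 accessory end-joining genes, KBrO3 alone at 4 hr lowered 5 and raised 1, with a median of -0.52. The polymerase lambda gene Poll fell by 1.77, Aplf, whose product binds Ku80 and XRCC4, by 1.60, and the helicase gene Wrn by 1.23. In co-exposure at 4 hr 5 fell and 3 rose, with Poll at -1.53 and Dntt, the template-independent polymerase of lymphocytes, at 2.15. At 24 hr KBrO3 alone raised 3 and lowered 2 (median -0.0026) and co-exposure raised 5 and lowered 4 (median 0.28). Paxx, which encodes a paralog of XRCC4 and XLF, was lower in all 4 groups, at -0.58, -0.78, -0.85 and -0.81.

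For break sensing and the 53BP1 pathway, 14 of 16 genes had a probe. KBrO3 alone at 4 hr lowered 8 and raised 3 (median -0.32), and co-exposure at 4 hr lowered 6 and raised 4 (median 0.012), where 40.7% of all genes were lower and 39.7% higher. The shieldin subunit Shld1, which acts downstream of 53BP1, fell by 2.41 and 1.89, while the ubiquitin ligase gene Rnf8, which acts upstream of it, rose by 1.33 and 1.60. At 24 hr 10 genes were higher and 2 lower in KBrO3 alone (median 0.28), and 10 were higher and 1 lower in co-exposure (median 0.46), with Mre11a, the nuclease of the sensor complex, at 0.82 and 1.15 and its partner Rad50 at 0.65 and 0.73. Co-exposure exceeded KBrO3 alone in 7 genes and was lower in 4 at 4 hr, with Shld2 at 1.01, beside 28.1% and 32.7% of all genes, and in 7 and 2 at 24 hr, beside 28.5% and 21.9%.

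Of 8 genes of alternative end joining, the route that joins ends through short homologies, KBrO3 alone at 4 hr lowered 5 and raised 2 (median -0.23), and co-exposure at 4 hr did the same in number (median -0.28), beside the 38.1% and 40.7% of all genes that were lower. The flap nuclease gene Fen1 rose by 0.93 and 1.01 and Rbbp8, whose product CtIP starts resection, by 0.92 and 0.83. Xrcc1, the scaffold of ligase III, fell by 0.59 and 0.67. At 24 hr 6 of the 8 were higher and none lower in KBrO3 alone (median 0.37), and likewise in co-exposure (median 0.36), with Parp1, the strand-break sensor, at 0.89 and 0.73. Polq, the polymerase of this route, was 0.96 above control in KBrO3 alone and 0.27 in co-exposure, a difference of -0.69 between them. BPA alone called 0 genes of the 3 lists at either time.

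The likeness of 2 genes was measured as the root mean square difference between their profiles, each centred on the controls, over the 15 arrays of the first set. Nearest to Xrcc6 were Bcs1l at 0.0632 and Dctn2 at 0.0761 and Fbxl19 at 0.081 log2 units, where the median over 14088 genes was 0.822. Over the 9 arrays of the second set, which the choice did not use, the same genes stood at 0.238 and 0.412 and 0.393, beside a median of 0.521. Nearest to Prkdc were Mtmr9 at 0.0755 and Shkbp1 at 0.0774 and Rfc5 at 0.0821 (median 0.848), with 0.446 and 0.327 and 0.455 in the second set (median 0.507). Nearest to Lig4 were Cnot9 at 0.105 and Timm9 at 0.109 and Uchl3 at 0.132 (median 1.00), with 0.539 and 0.395 and 0.366 in the second set (median 0.550). Among the members themselves Xrcc6 and Prkdc were closest in the first set (0.202), but not in the second (0.363), where Xrcc6 and Xrcc4 were (0.21).

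The promoters of the 3 members past the stricter threshold in both treatments at 4 hr, and of Lig4, which moved the other way, are shown as the 250 bases before the annotated start, from RefSeq on GRCm38.p6. Of the 9 members 8 matched the promoter table, Lig4 with 2 starts, and Prkdc is not listed. Searched on both strands were GGGCGGGG (SP and KLF factors, in 16.1% of all 32851 windows), CCGGAAGT (ETS, 2.88%), CGCATGCG (NRF1, 1.55%), TTTCGCGC (E2F, 0.256%), TTTGGCGC (E2F, 0.417%), CCAATCAG (NF-Y, 3.83%), TGACGTCA (CREB, 1.55%), TGACTCA (AP-1, 4.46%) and TGACNNNGC (NRF2, 10.2%). Capitals mark the matches. The Xrcc6 window, plus strand at chr15:82016119-82016368, holds GGGCGGGG at 2 places.
Xrcc6 promoter: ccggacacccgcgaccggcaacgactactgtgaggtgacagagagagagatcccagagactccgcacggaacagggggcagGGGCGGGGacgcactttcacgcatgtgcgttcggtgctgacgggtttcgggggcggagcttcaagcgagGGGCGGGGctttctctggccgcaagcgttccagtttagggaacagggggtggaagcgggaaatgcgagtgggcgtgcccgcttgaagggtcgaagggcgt
The Nhej1 window, minus strand at chr1:75125227-75125476, holds the same letters on the opposite strand.
Nhej1 promoter: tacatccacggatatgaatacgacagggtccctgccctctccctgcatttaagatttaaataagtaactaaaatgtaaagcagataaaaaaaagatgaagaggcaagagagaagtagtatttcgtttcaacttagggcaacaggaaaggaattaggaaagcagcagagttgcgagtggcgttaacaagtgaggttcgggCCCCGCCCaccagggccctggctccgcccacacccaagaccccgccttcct
The Polm window, minus strand at chr11:5838017-5838266, holds them too, and TGACNNNGC on the opposite strand.
Polm promoter: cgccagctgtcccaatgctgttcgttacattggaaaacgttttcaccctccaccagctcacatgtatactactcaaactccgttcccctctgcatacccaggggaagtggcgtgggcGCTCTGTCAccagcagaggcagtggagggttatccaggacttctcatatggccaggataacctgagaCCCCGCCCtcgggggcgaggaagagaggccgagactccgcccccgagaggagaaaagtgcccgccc
The first Lig4 window, minus strand at chr8:9977681-9977930, holds CCGGAAGT and CGCATGCG, and the window of its other start holds GGGCGGGG.
Lig4 promoter: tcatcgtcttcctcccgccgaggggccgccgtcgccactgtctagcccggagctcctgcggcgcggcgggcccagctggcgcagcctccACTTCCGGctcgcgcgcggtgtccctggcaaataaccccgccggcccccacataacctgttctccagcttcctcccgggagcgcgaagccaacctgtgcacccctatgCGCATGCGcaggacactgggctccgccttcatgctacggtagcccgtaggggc
The windows of Xrcc5, Xrcc4, Dclre1c and Trp53bp1 held none of these letters. GGGCGGGG stood both in windows of members that fell and in 1 of Lig4, which rose.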

How the data were processed

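Gene expression was measured on Agilent whole mouse genome 1-colour arrays of 24 RNA samples, 3 per group. The spot intensity deposited by the authors is the processed signal of Feature Extraction, version 9.5.3.1 in the first set and 12.0.0.7 in the second, already background-subtracted on a linear scale. The series' value table held the same values (1080432 of 1080432 equal within a relative tolerance of 1e-06) and was not analysed separately. Outlier spots and control spots were left out, spots of a probe were averaged, and each array's 75th percentile was subtracted from log2 intensity.

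Differences were tested with limma 3.58.1 in R 4.3.3 (lmFit and eBayes), in 1 fit per set. A probe entered if some group had it well above background on all of its arrays. Calls required p below 0.05 after Benjamini-Hochberg adjustment across every probe in the fit, and intervals are at 95%. The difference between BPA alone and BPA added to KBrO3 was fitted over both sets with a variance for each set. The fitting step was tested on simulated data. Precision is limited by the 3 arrays of each group and by the spread between arrays, which was larger in the second set.

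All 9 members were named by every probe that carries their symbol or an older synonym, and a gene was represented by its brightest probe on average. No measured value entered the rule for members, but members and gene lists were chosen with earlier results of these data known. Alternatives were quantile and median scaling, normexp background correction (offset 50, on the mean signal in the first set and the median signal in the second), other filters on dim probes, other arrays in the fit, error weights, replicate and slide blocks, any probe of a gene, the Bonferroni threshold of the methods, and leaving out each array. Coordinates are those of the array annotation, and promoters come from RefSeq. The summed level of the blood marker list is not reported here.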

Additional observations from a re-analysis of the deposited data

Results flagged for a closer look

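For 5 members the difference between co-exposure and KBrO3 alone changed from 4 to 24 hr by limma's interaction test, which 57.4% of all genes passed. The change was -0.99 on the log2 scale for Lig4 (adjusted p = 3.25e-05), -0.64 for Xrcc4 (adjusted p = 0.0213), 0.32 for Xrcc5 (adjusted p = 0.00885), 0.34 for Nhej1 (adjusted p = 0.00535) and 0.50 for the representative probe of Dclre1c (adjusted p = 0.00173). Slide as a fixed block could not be fitted to this change. Lig4 kept its call under all the other alternatives. The other 4 members lost theirs with normexp background correction and with all 24 arrays in 1 fit. For Prkdc at 4 hr, BPA added to KBrO3 and BPA alone differed by 0.64 (adjusted p = 0.00839), across the 2 array sets, a call lost under median scaling, with normexp background correction and without replicate 3 of BPA alone at 4 hr.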

How the results depend on the processing

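Counts of members called under the main setting were 6 of 9 in KBrO3 alone at 4 hr, 7 at 24 hr, 8 in co-exposure at 4 hr, 6 at 24 hr and 0 in BPA alone at both times, all against control, and 6 and 2 in co-exposure against KBrO3 alone at 4 and 24 hr. With the Bonferroni and fold threshold they were 3, 1, 4 and 2 in the first 4 of these comparisons, and 1 and 0 in co-exposure against KBrO3 alone. Normexp background correction gave 4 in KBrO3 alone at 24 hr, and 2 and 1 in co-exposure against KBrO3 alone. All 24 arrays in 1 fit gave 4 in KBrO3 alone at 24 hr, 3 in BPA alone at 4 hr, and 3 and 1 in co-exposure against KBrO3 alone. At 24 hr that last comparison gave 4 under median scaling and 4 with slide as a random or a fixed block. Leaving out 1 array at a time gave 6 to 7 in KBrO3 alone at 4 hr, 6 to 7 at 24 hr, 6 to 8 in co-exposure at 4 hr, 6 to 9 at 24 hr, 0 in BPA alone, 5 to 6 in co-exposure against KBrO3 alone at 4 hr and 2 to 5 at 24 hr. Among single-gene differences that were called under the main setting or the alternative, the sign turned for Polm in co-exposure at 24 hr against control (0.068 under median scaling, 0.0022 with normexp), for Prkdc in co-exposure against KBrO3 alone at 4 hr (-0.015) and for Xrcc4 in co-exposure from 4 to 24 hr (0.36), both under median scaling. That scaling shifted every difference by 0.15 in KBrO3 alone at 24 hr, -0.14 in co-exposure at 4 hr and 0.32 at 24 hr against control. It moved 16 differences that kept their call by over 1.5 times, and normexp moved 4. The cause was not tested.

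Replicate numbers showed no pairing of the arrays on average. Arrays with the same number correlated in their deviations from the group means at -0.029 on average in the first set, with 1 of 30 pairs over 0.1, and at 0.0020 in the second, with 3 of 9. Single pairs ran from -0.21 to 0.11 in the first set and from -0.38 to 0.65 in the second, where the average does not describe each pair. With the replicate number as a block the counts were 6, 6, 7, 6, 0 and 0 against control and 6 and 2 between co-exposure and KBrO3 alone. The block changed 2 single-gene calls to not called. Dim signals limit the second Dclre1c probe, and the larger spread of the second set limits BPA alone.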
